A study of Mus musculus with 18 samples.

Results

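The genes of the proteins of the cytosolic ribosome were followed across mouse cortex after spreading depolarization, in which neurons and glia lose their membrane potential in a front that creeps through the grey matter. Members were taken by gene symbol, that is all symbols made of Rpl or Rps and a digit together with Rpsa, Rplp0, Rplp1 and Rplp2, without the S6 kinases, whose symbols start with Rps6k. This gave 89 of the 13479 genes in the deposited tables. Of these, 31 encode proteins of the small subunit and 46 proteins of the large subunit, 77 together. The other members are 4 paralogs (Rpl22l1, Rps27l, Rpl36al and Rpl7l1), 7 retrocopies, and Rps19bp1, a binding partner of a ribosomal protein that is not itself part of the ribosome. The retrocopies are copies that arose by reverse transcription of a spliced mRNA (Rpl10-ps3, Rps12-ps3, Rpl36a-ps1, Rps27rt, Rpl9-ps6, Rpl27-ps3 and Rpl7a-ps5). All but Rpl7a-ps5 were listed in both systems of the study, which leaves 88 members with 18 values each.

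The study used healthy female C57BL/6 mice of 7 to 8 weeks, and each stimulated mouse had 4 waves in 2 h, 30 min apart. In the KCl system the waves were started by focal KCl in WT mice, and sham mice of the same genotype were given NaCl. Optogenetic waves were started by light of 2 mW for 20 s, and all 9 libraries, sham included, came from mice labelled Thy1-ChR2-YFP heterozygous, in which the Thy1 promoter drives a light-gated cation channel in neurons. Each system has 3 libraries of the depolarized (left) hemisphere, 3 of the other (right, contralateral) side in the same animals and 3 from sham-treated mice, 18 libraries of 12 mice in all. Values are FPKM, the deposited level per length of transcript and per number of mapped fragments. SD stands for the standard deviation over the 3 libraries of a group throughout.

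A ribosome carries these proteins in fixed proportions, so cells make them in matched amounts, and in neurons their mRNAs are found in the cell body as well as in dendrites and axons. Most of the control lies in translation. Ribosomal protein mRNAs begin with a C followed by an unbroken run of pyrimidines, the terminal oligopyrimidine tract, through which mTORC1 and the RNA-binding protein Larp1 set how well they are translated. Only mRNA levels were measured here, so control at that layer was not tested.

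The tract can be read at the annotated start sites. The windows below are shown for the 5 genes that were lower on the depolarized side in every one of 6 mice, and for Rps27 with its retrocopy and its paralog. Each holds the 10 bases before and the 20 bases from the start site in RefSeq (build GRCm38.p6), 5′ to 3′ on the strand of the gene, and capitals mark a run of at least 5 pyrimidines that begins with a C within 5 bases of the annotated start.
Rps15a: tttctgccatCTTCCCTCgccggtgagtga
Rpl15: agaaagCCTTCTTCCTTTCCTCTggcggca
Rps10: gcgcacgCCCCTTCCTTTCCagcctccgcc
Rpl36a: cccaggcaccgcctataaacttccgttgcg
Rpl41: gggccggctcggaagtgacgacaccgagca
Rps27: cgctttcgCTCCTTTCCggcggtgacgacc
Rps27rt: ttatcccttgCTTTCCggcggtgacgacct
Rps27l: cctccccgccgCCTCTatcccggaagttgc

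These windows lie on the minus strand at chr7:118116128-118116157 for Rps15a, chr14:18270967-18270996 for Rpl15, chr17:27635225-27635254 for Rps10, chr10:128549149-128549178 for Rpl41, chr3:90213629-90213658 for Rps27 and chr9:114982720-114982749 for Rps27rt. They lie on the plus strand at chrX:134585644-134585673 for Rpl36a and chr9:66946076-66946105 for Rps27l. The runs of Rps15a, Rpl15 and Rps10 are 8, 17 and 13 bases long, and no such run stands at the annotated starts of Rpl36a and Rpl41. Rps27rt has a run of 6 bases, and from the start of that run 38 bases in a row equal those of Rps27. Of 63 members with an entry in the promoter table, 30 (47.6%) held a run by this definition on the gene's strand, against 5718 of 27025 RefSeq genes in that table (21.2%) and 2455 of 10326 other genes of the deposited tables (23.8%). The share was 47.8% for the small and 47.1% for the large subunit. Annotated starts can lie some bases away from the start used in cortex, and a window without a run says only that the letters are not at the annotated position.

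The libraries carried the markers of cortex. The 6 markers of excitatory cortical neurons, Slc17a7 and Tbr1 among them, summed to between 900 and 1052 FPKM in every library. The 5 markers of choroid plexus, a tissue outside the cortex, were uneven, with sums from 3.78 to 1130 FPKM, 2 of their values at 0 and wide ranges within most groups. The marker lists of interneurons, astrocytes, oligodendrocytes, microglia, endothelium and red blood cells had no value at 0. The stimulus could be seen in the RNA. Of 12 neuronal activity genes such as Fos and Arc, all 12 were higher in the depolarized hemisphere than in sham in both systems. Their median log2 fold changes were 2.59 (optogenetic) and 1.90 (KCl). After adjustment in limma, 12 were called higher against optogenetic sham and 1, Fosb, against NaCl sham. Between the hemispheres all 12 were higher on the depolarized side in both systems, and 12 (optogenetic) and 11 (KCl) were called. In the contralateral hemisphere against sham their medians were -0.87 (KCl) and -0.31 (optogenetic), each with 1 of 12 above 0 and none called. Sham was thus not the lowest group for these genes. Read counts were not used here, so the depth of the libraries is unknown, and between 11668 and 12030 genes per library reached 1 FPKM. In bulk cortex, fewer cells of a type and less RNA per cell cannot be told apart.

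Ribosomal protein genes were among the most abundant mRNAs of the cortex. The 77 subunit genes had a median of 66.6 FPKM over the 18 libraries, against 5.76 FPKM for all genes, and 21 of the 260 genes above 100 FPKM were members. Levels per length nevertheless spanned 32.6-fold within the family. The highest were Rplp1 of the acidic stalk, to which elongation factors bind, at 366 FPKM (317 to 413 over the libraries), Rps15 of the small subunit at 354 FPKM (325 to 402), and Rpl17 at 320 FPKM (254 to 396). Rps3a1 at 258 FPKM and Rpl8 at 233 FPKM followed, and the ranges of these 2 genes over the libraries overlapped.

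The lowest subunit genes were Rpl18 at 11.2 FPKM (10.2 to 12.5), Rps20 at 11.7 FPKM (9.81 to 16.6), and Rps19 at 15.5 FPKM (12.8 to 19.6). Rpl18 and Rps20 did not differ beyond their ranges. Small and large subunit genes were mixed along the order, with medians of 63.6 and 68.4 FPKM. The retrocopies ranged from 2.09 FPKM for Rpl27-ps3 to 13.2 FPKM for Rpl10-ps3, the only 1 above the lowest subunit genes, and Rpl7a-ps5 lay between 0.44 and 1.02 FPKM in the optogenetic libraries.

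**Figure D1:**
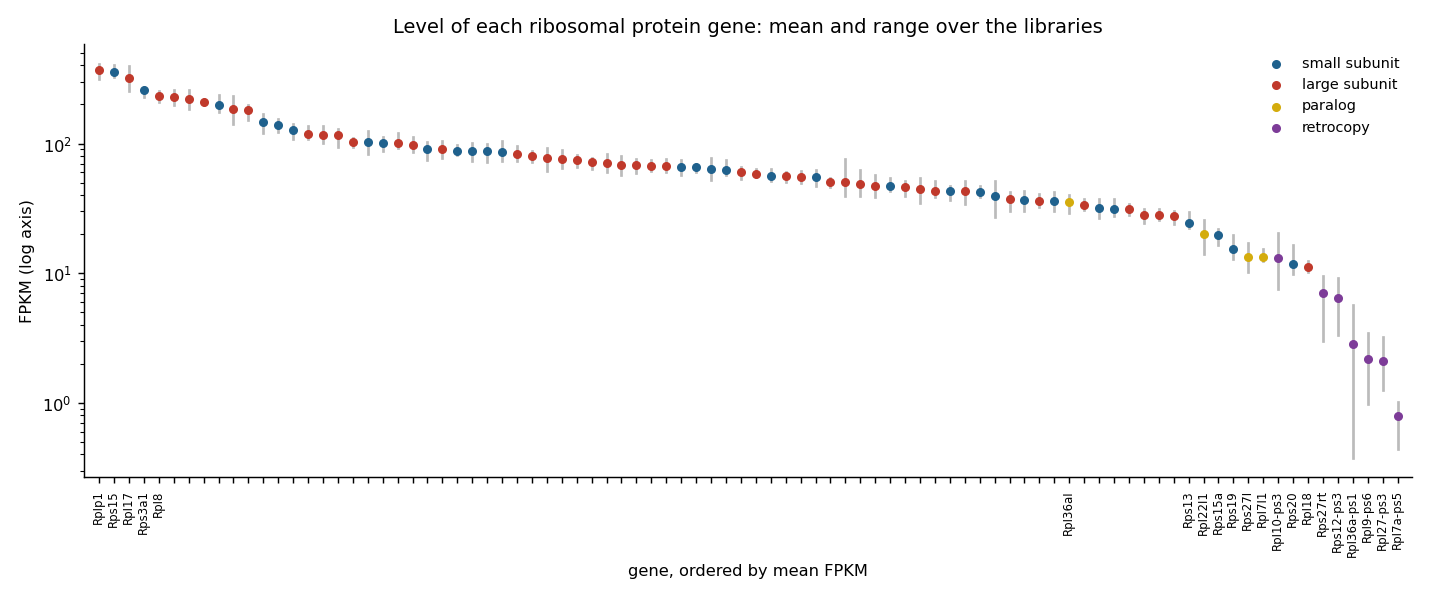
Mean FPKM (points, log axis) and the range over the libraries (grey lines) of each ribosomal protein gene except Rps19bp1, ordered by mean and coloured by class. The subunit genes run from Rplp1 at 366 FPKM to Rpl18 at 11.2 FPKM, with the retrocopies below most of them. Names stand under the 5 highest and 5 lowest subunit genes, the paralogs and the retrocopies. Rpl7a-ps5 has 9 optogenetic libraries only.

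Added up, the 77 subunit genes made a nearly constant share of the mRNA. In the KCl system their summed FPKM was 7313, 7024 and 6666 in the depolarized hemispheres, 7333, 7538 and 6980 in the contralateral ones and 7698, 6829 and 6725 in sham. The groups overlapped, and the means were 7001 ± 324, 7284 ± 283 and 7084 ± 534 (SD, n = 3). In the optogenetic system the sums were 6857, 6777 and 6670 in the depolarized hemispheres, 7327, 6512 and 6534 in the contralateral ones and 6370, 6842 and 6913 in sham.

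Here too the groups overlapped, with means of 6768 ± 93.6, 6791 ± 465 and 6708 ± 295 (SD, n = 3). On the log2 scale the group means of a system differed by at most 0.057 (KCl) and 0.016 (optogenetic), less than the pooled SD within groups of 0.080 and 0.068. As a share of the FPKM of all genes listed in both systems, the sum lay between 2.92% and 3.27% in every library. The balance of the subunits also held, since the small subunit genes summed to between 0.592 and 0.616 times the large subunit genes in the 18 libraries.

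**Figure D2:**
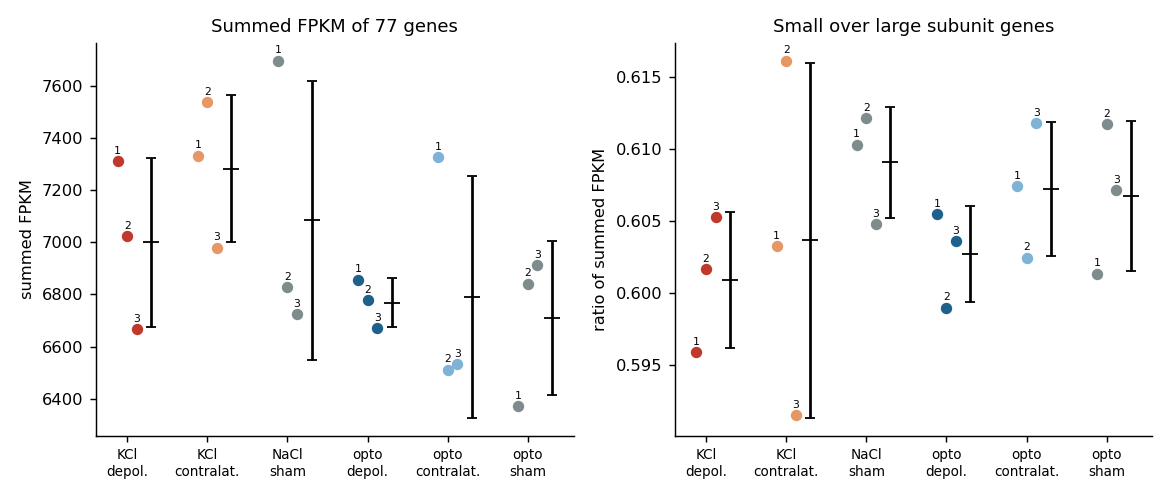
Summed FPKM of the 77 subunit genes (left) and the ratio of the small to the large subunit sum (right) in each library, with the replicate number at each point and the mean and SD of each group in black. The axes do not start at 0. In each system the 3 groups overlap, between 6666 and 7698 in the KCl and between 6370 and 7327 in the optogenetic libraries.

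The sum differed more between single libraries than between groups. In NaCl sham replicate 1, 71 of the 77 genes were above their mean over the KCl system, with a median deviation of 0.11 on the log2 scale, and in optogenetic contralateral replicate 1, 76 of 77 were above that of their system, with a median of 0.12. KCl depolarized replicate 3 and optogenetic sham replicate 1 were low, with 5 and 6 of the 77 genes above the mean. The nuclear-encoded respiratory chain genes deviated by 0.095 and 0.10 in the 2 high libraries, and other genes under 1000 nt and above 10 FPKM by 0.091 and 0.099. The longest annotated transcripts of the 77 genes had a median of 1094 nt, so the cut at 1000 nt does not match them in length. The part of transcript length or RNA quality in these shifts was not tested.

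The first comparison asked what waves started by KCl do relative to NaCl sham. None of the 88 members passed an adjusted p of 0.05 in limma, where 0.0694% of all 12972 genes did, and none passed in the authors' deposited table. At an unadjusted p under 0.05 limma found 3 members (3.41%), against 7.92% of all genes, and the authors' deposited table gave 2. The limma count ranged from 0 to 6 over the alternatives, the 6 without NaCl sham replicate 2. The median log2 fold change of the members was -0.0094, with 39 above and 49 below 0, next to -0.027 for all genes, and it turned to 0.021, with 54 above and 34 below 0, under median-of-ratios scaling. The 95% intervals of 83 members lay within a 1.5-fold change in either direction.

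Among the members with an unadjusted p under 0.05 were Rplp0 and Rps4x. Rplp0, which anchors the stalk that Rplp1 and Rplp2 form, was at 77.2, 74.7 and 73.7 FPKM in the depolarized hemispheres and at 86.2, 80 and 80.7 FPKM in sham. These values did not overlap, and the log2 fold change was -0.13 (SE 0.05, adjusted p = 0.578). Rps4x, the X-linked gene of small subunit protein S4, stood at 82.1, 81.6 and 75.1 FPKM against 94.1, 86.6 and 86 FPKM, also without overlap and with a log2 difference of -0.16 (SE 0.06, adjusted p = 0.580).

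Groups did not overlap for 4 members (4.55%), all lower in the depolarized hemisphere, where 8.54% of all genes were lower without overlap and 4.42% higher. Besides Rplp0 and Rps4x these were Rpl13 and Rps15a. Rps15a was at 17.9, 17.8 and 16.4 FPKM against 19.2, 18.5 and 19.2 FPKM, with a log2 difference of -0.13 (SE 0.06, adjusted p = 0.677). The 5 endothelial markers, none of which passed, summed to 30.2 to 35.0 FPKM in the depolarized hemispheres and to 36.8 to 45.9 FPKM in sham. The 4 pericyte markers summed to 37.3 to 38.9 FPKM and 39.1 to 40.0 FPKM, also with none called, and the part of these cells in the differences was not tested. The lowest fold change was that of Rplp2, -0.18 (SE 0.10, adjusted p = 0.70), and the highest that of Rpl36a-ps1, 0.20 (SE 0.28). Rpl22l1 at 0.15, and Rps24, Rpl30 and Rpl23 at 0.07 to 0.08, followed on the high side, and Rpl9-ps6, Rps4x and Rpl27-ps3 lay at -0.16 each on the low side.

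Between the hemispheres of the KCl mice most members leaned to the low side, each by little. The median log2 fold change of the depolarized against the contralateral side was -0.057, with 78 of 88 members below 0, next to a median of -0.023 for all genes. Under median-of-ratios scaling it was -0.032, with 67 below 0. Among other genes under 1000 nt and above 10 FPKM the median was -0.086, and among those above 10 FPKM of any length -0.017. Above 0 were 10 of the 88 members and 42.7% of all genes. The lean was not particular to the family. Respiratory chain genes had a median of -0.057 with 21 of 80 above 0, and mitochondrial ribosomal protein genes -0.075 with 15 of 78. None of the members passed in limma, where 0.347% of all genes did, and none in the authors' deposited table. At an unadjusted p under 0.05 there were 5 in limma (5.68%, against 9.88% of all genes) and 4 in the authors' deposited table. With the mouse as a block on the 6 libraries of this comparison the limma count was 12 (13.6%, 11 of them lower), against 11.2% of all genes, and without contralateral replicate 1 it was 2. In 11 members (12.5%) every depolarized library was below every contralateral one, as in 11% of all genes, and in none was it the other way round, against 6.28%. Summed markers of choroid plexus also differed here, with 472 to 592 FPKM in the depolarized and 13.5 to 469 FPKM in the contralateral hemispheres. The summed meninges markers lay at 15.2 to 25.8 FPKM and 10.1 to 12.9 FPKM. Of the 5 meninges markers, however, only 3 were above 0, and their median log2 fold change was 0.00052. None of these 10 markers passed, and their part in the result was not tested.

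Rps15a, a core protein of the small subunit, had the smallest p of the family here. It stood at 17.9, 17.8 and 16.4 FPKM in the depolarized and at 19.4, 21.7 and 19.4 FPKM in the contralateral hemispheres, without overlap. The log2 fold change was -0.21 (SE 0.06, 95% interval -0.35 to -0.07, adjusted p = 0.340). Rps4x was lower by a similar amount, 82.1, 81.6 and 75.1 FPKM against 91.7, 90.7 and 82.9 FPKM, again without overlap, and the log2 fold change was -0.15 (SE 0.06, adjusted p = 0.468).

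The other members without overlap, named after their values were seen, were Rpl15, Rpsa, Rpl37, Rps23, Rps12, Rplp0, Rpl24, Rps19bp1 and Rpl10-ps3. Rpl10-ps3 had the lowest fold change, -0.30 (SE 0.11, adjusted p = 0.414), followed by Rps12-ps3 at -0.28 (SE 0.15), Rps19bp1 at -0.22 (SE 0.09) and, after Rps15a, Rpl39 at -0.18 (SE 0.15). Only 10 members were above 0, led by Rpl36a-ps1 at 0.87 (SE 0.28, adjusted p = 0.379) and Rps20 at 0.20 (SE 0.19). The contralateral hemisphere itself lay slightly above sham, with a median of 0.041 and 68 of 88 members above 0, next to -0.0061 and 47.7% for all genes. Respiratory chain genes had a median of 0.041 there with 59 of 80 above 0, and mitochondrial ribosomal protein genes 0.033 with 52 of 78. The contralateral hemisphere shares its libraries with the comparison just given and sham with the first, so the 3 medians are not independent.

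For the contralateral hemisphere against NaCl sham, none of the members passed in limma (0.00771% of all genes did) or in the authors' deposited table, and 1 member, Rpl36a-ps1, had an unadjusted p under 0.05 in limma, where 5.6% of all genes did. The authors' deposited table also gave 1. Without NaCl sham replicate 1, the library in which the family stood high, the limma count was 17 (19.3%, 16 of them higher), against 4.94% of all genes, and the median was 0.094. Without overlap 4 members (4.55%) were higher, Rps15a, Rpl6, Rpl30 and Rps12-ps3, and none was lower, against 4.87% and 5.87% of all genes. Rps12-ps3 had the highest fold change, 0.31 (SE 0.15), followed by Rpl10-ps3, Rpl37, Rpl39 and Rpl22l1 at 0.13 to 0.22. Rpl36a-ps1 had the lowest, -0.66 (SE 0.28, adjusted p = 0.877), and Rps20, Rpl27-ps3 and Rplp2 lay at -0.09 to -0.18.

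For waves started by light the members lay around 0. Against optogenetic sham the median log2 fold change of the 89 members in the depolarized hemisphere was 0.012, with 51 above and 38 below 0, next to -0.017 for all genes, and it was -0.013, with 58 below 0, after quantile normalization. The 95% intervals of all 89 members lay within 1.5-fold. None passed in limma, where 0.477% of all 13001 genes did, and none in the authors' deposited table. At an unadjusted p under 0.05 there were 4 (4.49%) against 8.73% of all genes, and 4 in the authors' deposited table. Over the alternatives the limma count ranged from 1 to 7. Of the 5 astrocyte markers, all lower, Gja1, the gap junction protein connexin 43, fell by 0.50 (SE 0.08, adjusted p = 0.0319), while the summed astrocyte markers overlapped between the groups. Red blood cell markers, none of 5 called, summed to 204 to 324 FPKM in the depolarized hemispheres and to 414 to 1031 FPKM in sham. The part of these cells was not tested.

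In this comparison 4 members were higher without overlap (4.49%, against 6.04% of all genes), Rpl9, Rpl29 and Rpl27 among them, and 5 were lower (5.62%, against 8.51%), namely Rps15a, Rps27a, Rps27l, Rpl10a and Rpl36a.

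Rps15a was lower here too, with 18.9, 19.1 and 19.7 FPKM against 21.1, 21 and 22.1 FPKM in optogenetic sham. The log2 fold change was -0.15 (SE 0.05, 95% interval -0.25 to -0.04, adjusted p = 0.409). Rps27l, the paralog of Rps27 that is known as a p53 target, had the lowest fold change of the family, -0.26 (SE 0.11, adjusted p = 0.572), with 11.4, 10.9 and 12 FPKM against 13.2, 12.5 and 15.8 FPKM. It was lower by as much in the contralateral hemisphere, -0.26 (SE 0.11, adjusted p = 0.843), which shares the sham libraries. Rpl29 at 0.21 (SE 0.10), Rps27rt and Rpl10 at 0.13 were on the high side, and Rps27a, which encodes a fusion of ubiquitin and a ribosomal protein, at -0.15 (SE 0.08), Rpl10a at -0.12 (SE 0.05) and Rpl36a at -0.09 on the low side.

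Between the hemispheres of the optogenetic mice the median was -0.0089, with 55 of 89 members below 0, next to -0.023 for all genes, and it was 0.015, with 52 above 0, with median-of-ratios scaling and 0.038 without contralateral replicate 1. None of the members passed in limma (0.531% of all genes did) or in the authors' deposited table, and 2 (2.25%), Rps15a and Rpl10a, had an unadjusted p under 0.05 against 8.72% of all genes. The authors' deposited table gave 1. The 5 markers of striatum and other regions summed to 53.6 to 95.5 FPKM in the depolarized and to 97.7 to 117 FPKM in the contralateral hemispheres. Of these markers 1 had a log2 fold change above 0 and none was called, and their part was not tested. Rps15a was the only member without overlap (1.12%, against 9.67% of all genes that were lower; none was higher, against 5.26%), with 18.9, 19.1 and 19.7 FPKM against 21.5, 21.3 and 20.2 FPKM and a log2 difference of -0.12 (SE 0.05, adjusted p = 0.468). Rpl10a, of the stalk through which spent tRNA leaves, was at -0.14 (SE 0.05, adjusted p = 0.510). Rpl36a-ps1 at 0.27 (SE 0.14) and Rpl27 at 0.15 (SE 0.08) led the high side.

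The optogenetic contralateral hemisphere against sham had a median of 0.0099, with 62 of 89 members above 0, next to 0.0058 for all genes. It was -0.0026, with 48 below 0, after quantile normalization and -0.034 without contralateral replicate 1. None passed in limma (0.00769% of all genes did) or in the authors' deposited table, 2 (2.25%, Rps27l among them) had an unadjusted p under 0.05 against 5.8% of all genes, and 1 did in the authors' deposited table. Without overlap, 1 member was higher (1.12%, against 6.58% of all genes) and none was lower, against 4.33%. Red blood cell markers summed to 253 to 399 FPKM here against 414 to 1031 FPKM in sham, and the 5 interneuron markers to 365 to 391 FPKM against 342 to 355 FPKM. Of the interneuron markers 3 had a log2 fold change above 0. None of the markers of either list passed, and their part was not tested.

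**Figure D3:**
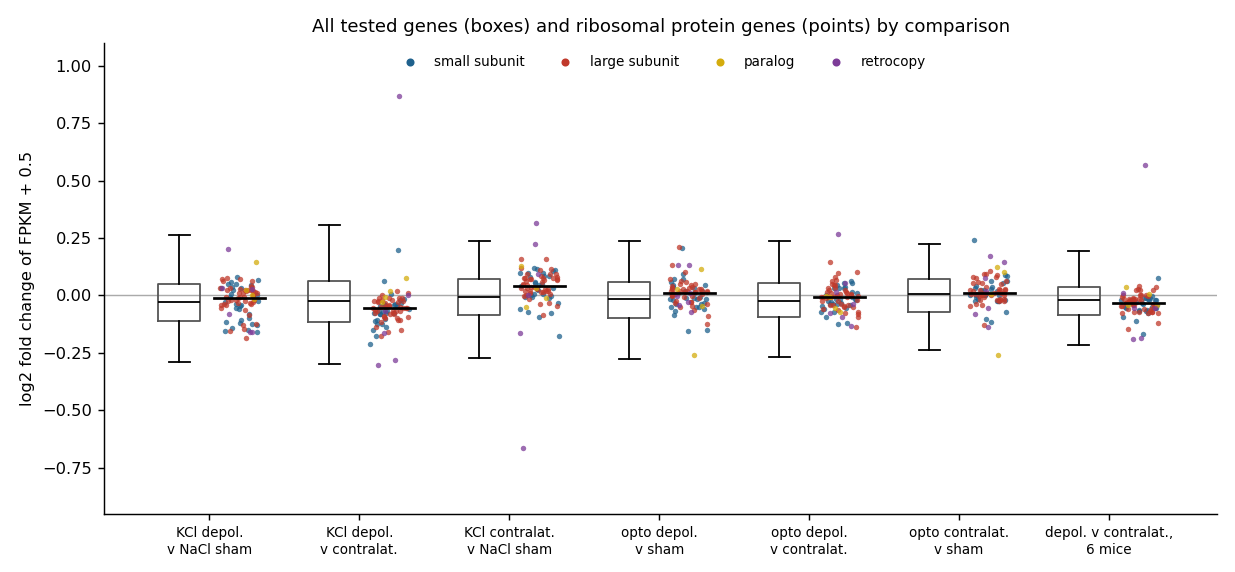
Log2 fold change of FPKM + 0.5 in each comparison, for all tested genes (boxes with the median, quartiles and the 5th and 95th percentiles) and for each ribosomal protein gene (points coloured by class, Rps19bp1 not drawn). The black line by the points is the median of the members, between -0.057 and 0.041, and the point at 0.87 is the retrocopy Rpl36a-ps1.

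The 6 stimulated mice were then put in 1 fit, each with its own contralateral side as control. Every depolarized side was the left and every contralateral side the right. In all hemisphere comparisons here the stimulus therefore cannot be told apart from a left-right difference. The median log2 fold change of the 88 members was -0.035, with 73 members below 0, next to -0.021 for all genes. For non-member genes under 1000 nt and above 10 FPKM it was -0.066. Above 0 were 15 of the 88 members and 40.0% of all genes. Respiratory chain genes had a median of -0.053 with 18 of 81 above 0, and mitochondrial ribosomal protein genes -0.069 with 11 of 78. Under median-of-ratios scaling the median of the members was -0.0098, with 38 above and 50 below 0, next to 0.0012 for all genes. The 95% intervals of 87 members lay within 1.5-fold. None of the members passed in limma, where 1.61% of all 12894 genes did, and 10 (11.4%) had an unadjusted p under 0.05, against 14.3% of all genes. Of these 10, 1 was higher and 9 were lower (10.2%, against 9.86% of all genes). The count was 5 (5.68%) under median-of-ratios scaling, with a constant prior variance or without KCl mouse 2, 6 without KCl mouse 1, KCl mouse 3 or optogenetic mouse 1, and 15 (17.0%, against 13.4% of all genes) without optogenetic mouse 2. Tbr1, a transcription factor of deep-layer neurons and 1 of the 6 excitatory markers, rose by 0.43 (SE 0.06, adjusted p = 0.0127). It was the only marker of that list to pass, with 4 of the 6 above 0 and a median of 0.19.

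The lean to the low side was not shared by all mice. In the KCl mice 49, 77 and 71 of the 88 members were lower on the depolarized side. In the optogenetic mice 80, 30 and 31 were lower, and the first of these mice is the one whose contralateral library stood high. Without that mouse the median over the other 5 was -0.018. Whether the hemisphere effect differed between KCl and light was tested as an interaction, in which none of the members passed and none had an unadjusted p under 0.05 (0% and 6.14% of all genes in limma), with a median of -0.044. With the mouse as a block on 12 libraries, 3 members (3.41%) had an unadjusted p under 0.05, against 8.29% of all genes, and none passed.

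Few members moved the same way in every mouse. Lower on the depolarized side in 6 of 6 mice were 5 members (5.68%, against 6.78% of all genes), Rps15a, Rpl15, Rps10, Rpl36a and Rpl41. Rps15a was named for its fold changes in these same libraries and the others by this count, all after their values were seen. The values of Rps15a by mouse are therefore no independent support. Higher in 6 of 6 was Rpl36a-ps1 alone (1.14%, against 3.37%). For Rps15a the log2 difference between the sides was -0.11, -0.28 and -0.24 in the KCl mice and -0.19, -0.15 and -0.03 in the optogenetic mice. The joint log2 fold change was -0.17 (SE 0.04, 95% interval -0.26 to -0.08, adjusted p = 0.106), and it lay between -0.19 and -0.14 over the alternatives. The interaction for Rps15a was -0.09 (SE 0.07, adjusted p = 0.924), and its within-group SD of 0.057 on the log2 scale was among the smallest of the family.

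Rps10 of the small and Rpl15 of the large subunit, whose starts are shown above, had joint log2 fold changes of -0.11 (SE 0.04, adjusted p = 0.300) and -0.07 (SE 0.03, adjusted p = 0.301). In some mice the sides of these genes were nearly level, with differences as small as -0.0070 for Rps10 and -0.0024 for Rpl15. Rpl10a at -0.15 (SE 0.04, adjusted p = 0.180) and Rps4x at -0.09 (SE 0.03, adjusted p = 0.210) were lower jointly but not in every mouse. The lowest values belonged to Rpl10-ps3 and Rps12-ps3, both -0.19 (SE 0.07 and 0.09), and the highest to Rpl36a-ps1.

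Rpl36a-ps1 (chromosome 14, 98993870 to 98994318, GRCm38) lies far below its parent. It was listed at 2.13, 1.73 and 0.953 FPKM in the KCl depolarized and at 1.03, 0.545 and 0.377 FPKM in the contralateral hemispheres, which overlapped. The optogenetic sides were at 5.68, 4.56 and 4.56 FPKM against 4.76, 4.08 and 3.26 FPKM, overlapping as well. Its joint log2 fold change was 0.57 (SE 0.13, adjusted p = 0.0907), the smallest adjusted p of the family, and it passed, at an adjusted p of 0.0150, only in the fit with a term for the difference between the systems. Over all alternatives its adjusted p ranged up to 0.250. Its transcript is 98.4% identical to that of Rpl36a over 97.6% of its length, so reads can be shared between the genes and these values are uncertain.

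**Figure D4:**
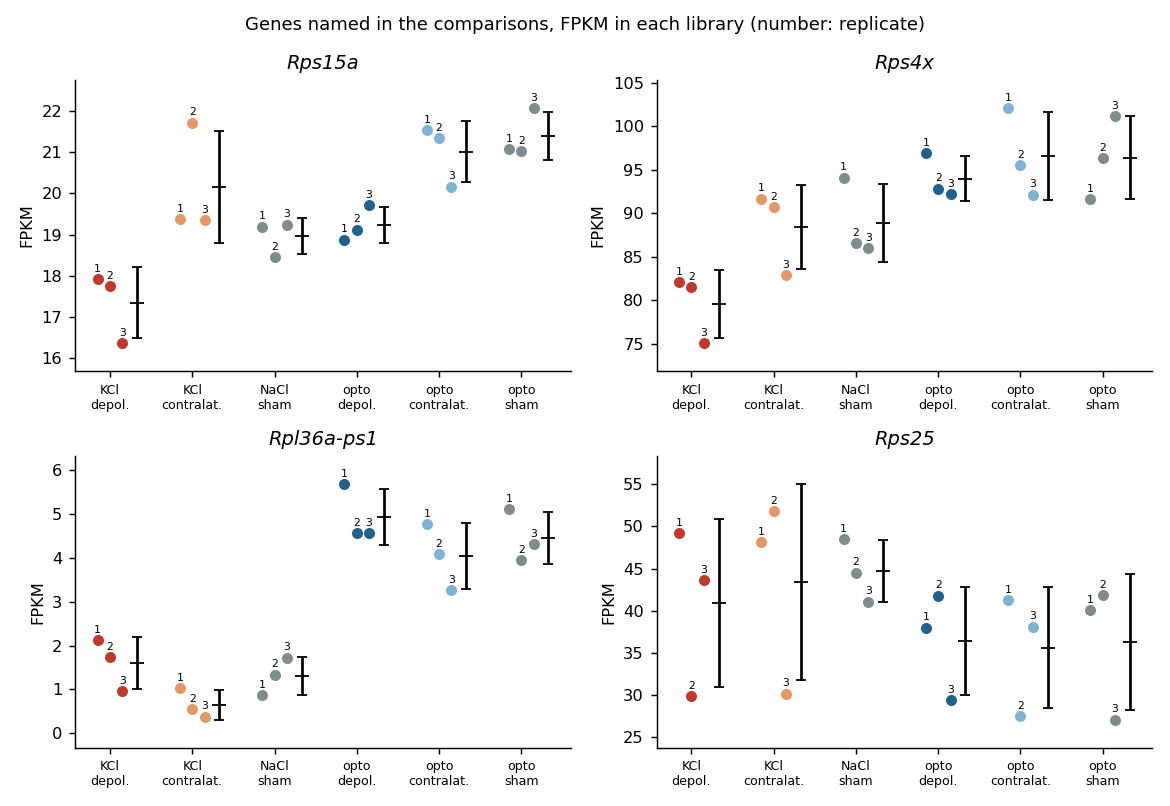
FPKM of Rps15a, Rps4x, Rpl36a-ps1 and Rps25 in each library, with the replicate number at each point and the mean and SD of each group in black. The axes do not start at 0. Rps15a is lower in both depolarized groups than in their contralateral and sham libraries, Rps4x is lower in the KCl depolarized group than in KCl contralateral and NaCl sham, and Rps25 is near 27 to 30 FPKM in 5 libraries of 5 groups.

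Ribosomal protein genes varied together between the libraries of a group. Over the 18 libraries, the deviations of 2 subunit genes from their group means correlated with a median Pearson r of 0.637, and 98.2% of the 2926 pairs were positive. The medians were 0.639 among small subunit genes, 0.643 among large subunit genes and 0.627 between the subunits. Without NaCl sham replicate 1 and optogenetic contralateral replicate 1 the median over all pairs was 0.547. The group means were still taken over all 3 libraries there, so the libraries left out still bear on this value. These correlations share the libraries and their scaling, and are given as a description.

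A gene correlated with the mean of the other subunit genes at a median of 0.796. Rpl26 at 0.987 was highest, and Rpl29 at 0.173 was lowest of the subunit genes. For comparison, other genes above 10 FPKM correlated with that mean at a median of 0.011, and non-member genes under 1000 nt and above 10 FPKM at 0.442. Respiratory chain genes did so at 0.591 and mitochondrial ribosomal protein genes, whose products make a separate ribosome, at 0.234. The spread itself was ordinary: the median within-group SD of the subunit genes was 0.089 on the log2 scale, next to 0.090 for other genes above 10 FPKM. Rpl4, which lines the exit tunnel for the nascent chain, was the steadiest at 0.040, followed by Rpl12 at 0.045 and Rpl6 at 0.052.

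The widest spreads belonged to retrocopies, with a median within-group SD of 0.293, and to Rps25. Rpl9-ps6 at 0.369, Rps27rt at 0.324, Rpl36a-ps1 at 0.318, Rps25 at 0.317 and Rpl27-ps3 at 0.267 made up the first 5. Rps25, a small subunit protein needed for initiation at some internal ribosome entry sites, took 2 levels. It was between 27.1 and 30.2 FPKM in 5 libraries (KCl depolarized 2, KCl contralateral 3, optogenetic depolarized 3, optogenetic contralateral 2 and optogenetic sham 3) and between 38.0 and 51.8 FPKM in the other 13. The low libraries are spread over 5 of the 6 groups, and in no mouse were both sides low. Rpl9-ps6 was low, at 0.979 to 1.05 FPKM, in KCl depolarized 2, KCl contralateral 3 and NaCl sham 3, and at 1.80 to 3.46 FPKM elsewhere.

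The systems were compared side by side, without a test, because their tables were made separately and their mice differ in genotype. The median log2 difference of optogenetic minus KCl libraries was -0.073 over the 77 subunit genes and 0.0095 over all genes. Without overlap between the 9 and 9 libraries, 8 members were lower in the optogenetic system (9.09%, against 3.04% of all genes) and 3 were higher (3.41%, against 6.41%). The lower ones were Rpl17, Rpl21, Rpl23a, Rps24, Rpl36al, Rpl10, Rpl12 and Rpl19, with log2 differences from -0.19 (Rpl19) to -0.41 (Rpl17, 254 to 301 FPKM against 330 to 396 FPKM).

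All 3 that were higher are retrocopies. Rpl10-ps3 was at 7.49 to 10.4 FPKM in the KCl and at 14.7 to 20.2 FPKM in the optogenetic libraries, a log2 difference of 0.89. Rps12-ps3 was at 3.33 to 5.28 FPKM and 7.19 to 9.25 FPKM (0.86), and Rpl36a-ps1 at 0.377 to 2.13 FPKM and 3.26 to 5.68 FPKM (1.63). Their transcripts are 98.4% to 100% identical to those of the parent genes over at least 96.4% of their length.

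Added to the parent gene, the pairs overlapped between the systems. Rpl10-ps3 and Rpl10 together made 53.6 to 64.4 FPKM in the KCl and 51.0 to 62.7 FPKM in the optogenetic libraries, a log2 difference of 0.0091, where Rpl10 alone differed by -0.25. Rpl36a-ps1 and Rpl36a together differed by 0.0083, and Rps12-ps3 and Rps12 by -0.023. The retrocopy made 13.8% to 18.3% of the Rpl10 pair in the KCl and 25.9% to 32.3% in the optogenetic libraries, 8.29% to 11.6% and 17.2% to 21.2% of the Rps12 pair, and 1.06% to 5.53% and 9.33% to 15.6% of the Rpl36a pair. How reads were shared out within a pair in either system was not tested.

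**Figure D5:**
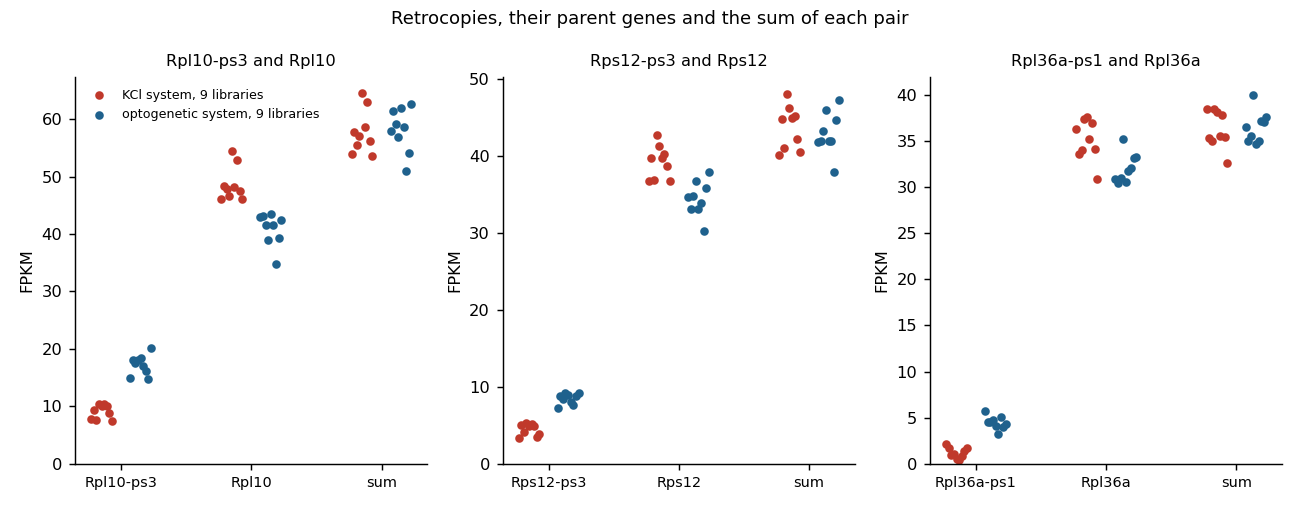
FPKM of 3 retrocopies, of their parent genes and of the sum of each pair, in the 9 KCl and the 9 optogenetic libraries (points, from left to right depolarized, contralateral and sham). The retrocopies are higher and Rpl10 lower in the optogenetic libraries, and the sums overlap.

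The paralogs are less alike in sequence, with 70.3% to 87.7% identity over 7.10% to 63.1% of the transcript, and each made a limited range of shares of its pair. Rpl36al, an intronless gene that encodes a protein close to that of Rpl36a, made 47.2% to 55.4% of the sum with Rpl36a. Rpl22l1 made 34.4% to 42.7% of the sum with Rpl22 in the KCl and 42.6% to 47.8% in the optogenetic libraries. Rps27l made 11.4% to 16% with Rps27, and Rpl7l1, a nucleolar relative of Rpl7, made 17.2% to 22.1% with Rpl7. Rpl13a and Rpl13, which share a name but not a sequence, were near level, with Rpl13a at 47.6% to 52.6%. None of the 4 paralogs passed in a comparison.

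Other genes of the translation machinery were counted in the same fits. Across the 6 group comparisons, none of 9 elongation factors, 35 initiation factors, 39 ribosome biogenesis genes, 78 mitochondrial ribosomal proteins or 19 other mRNAs with a terminal oligopyrimidine tract passed in limma, and their medians lay between -0.075 and 0.050. Of 23 genes of mTORC1 and the S6 kinases, none passed in a group comparison, and their medians lay between -0.092 and 0.018. In the 6 mice together Rheb, the GTPase that activates mTORC1, rose by 0.38 (SE 0.05, adjusted p = 0.0101), while Mlst8, an mTORC1 subunit, fell by 0.28 (SE 0.04, adjusted p = 0.0195) and Ddit4, an inhibitor of mTORC1, fell by 0.30 (SE 0.05, adjusted p = 0.0370). Atf3 of the integrated stress response rose there by 1.49 (SE 0.14, adjusted p = 0.00180), 1 of 13 genes of that list, whose median was 0.0073. Between the optogenetic hemispheres Atf3 was called as well, at 1.57 (SE 0.26, limma adjusted p = 0.0402). Of 81 respiratory chain genes Ndufa6 alone passed in the fit of the 6 mice, and fell by 0.17 (SE 0.03, adjusted p = 0.0258).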

How the data were processed

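Poly(A)-enriched RNA of 18 cortex libraries was sequenced with a stranded kit and paired ends, per the labels' protocols. The authors deposited FPKM per gene and library, computed with StringTie on GRCm38 per the submitters' processing notes, and in the same tables a log2 fold change, a fold change as a ratio, and p-value and q-value columns. No version or further step is given in the sources used here. No read counts were used, so depth is unknown.

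Here log2(FPKM + 0.5) was fitted, for genes averaging 0.5 FPKM or more, with limma 3.58.1 (R 4.3.3), 9 libraries per system, prior variance following the mean, and Benjamini-Hochberg adjustment over all genes tested. Fold changes are on that scale, which understates low genes. The 6-mouse fit has a block for the mouse, since the titles give the left and right library with a shared number to 1 mouse, and the difference between systems is an interaction over all genes in both. Libraries of a group come from separate mice. Deviations of the sides of a mouse correlated over genes between -0.087 and 0.14, and those of sides of different mice between -0.16 and 0.16. Over the members the ranges were -0.28 to 0.28 and -0.31 to 0.41. These values do not set sides of a mouse apart from other sides, so the pairing rests on the titles. The fit was also run on simulated data with independent noise and planted changes of at least 1.5-fold. That run does not cover smaller changes or genes that vary together. Members and lists were chosen with earlier results of these data known. Named are the 5 largest rises and falls of a comparison, the 5 highest and lowest levels, paralog pairs, genes with a gap between libraries and the extremes of spread, and up to 3 called genes of a list. Annotation and transcripts came from GENCODE M21 (13449 of 13479 genes matched) and promoters from RefSeq (63 of 89 members). Protein sequences were not used here, and a few genes counted among the members are not reported by name. Alternatives were other pseudocounts (0.1 and 1), filters, scalings, a constant prior variance, replicate blocks, fits of 6 libraries, the authors' columns, and leaving out each library. Python 3.11.15 and pandas 2.3.3 made the tables.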

Additional observations from a re-analysis of the deposited data

Results flagged for a closer look

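Both flagged genes moved in opposite directions in the 2 systems, lower on the depolarized side in every mouse of one and higher in every mouse of the other. Rps28 differed between the sides by -0.04, -0.31 and -0.02 on the log2 scale in the KCl mice and by 0.08, 0.08 and 0.0018 in the optogenetic mice. The interaction, KCl minus optogenetic, was -0.18 (SE 0.13, limma adjusted p = 0.906). Rps9, a small subunit protein, differed by 0.09, 0.05 and 0.04 in the KCl mice and by -0.13, -0.07 and -0.16 in the optogenetic mice, an interaction of 0.18 (SE 0.14, limma adjusted p = 0.910). With the mouse as a block on 12 libraries the SE was 0.09 for Rps28 (limma adjusted p = 0.647) and 0.05 for Rps9 (limma adjusted p = 0.563). Neither interaction passed in either fit, and 88 members were searched. The share of all genes with such opposite signs was not counted, so the 2 genes are given as a description only.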

How the results depend on the processing

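No member was called in 131 of 132 alternative fits. The exception was the 6-mouse fit with a side by system interaction, with 1 member called, Rpl36a-ps1, whose value of 0.57 then had an adjusted p of 0.0150. The fit without the mouse block called 0 members there (smallest adjusted p = 0.0731), and the replicate block changed no other call: 0 members were called with it in each comparison. The medians with the block equal those without, from -0.057 to 0.041, as they must in this balanced design. All 126 alternative medians moved by less than the spread between replicates, 0.077 (KCl) and 0.064 (optogenetic) on the log2 scale. Every main median is smaller than that spread, and several alternatives leave the fold changes as they were, so this cannot show stability. Being close to 0, the medians changed sign in 3 of 18 settings for KCl depolarized against sham, 3 of 18 for optogenetic contralateral against sham, 2 of 18 for optogenetic depolarized against sham and 2 of 19 for the optogenetic hemispheres. When each library was left out in turn, the medians ranged from -0.051 to 0.040, -0.092 to -0.027 and 0.014 to 0.094 in the KCl comparisons (with sham, between hemispheres, contralateral with sham) and from -0.022 to 0.033, -0.035 to 0.038 and -0.034 to 0.041 in the optogenetic ones, and leaving out each mouse gave -0.051 to -0.018 over the mice. Counts of members at an unadjusted p under 0.05 moved more, from 0 to 6, 2 to 12 and 0 to 17 in the KCl comparisons, 1 to 7, 0 to 4 and 1 to 4 in the optogenetic ones, 5 to 15 over the 6 mice and 0 to 3 in the interaction. Leaving libraries out of the sums was added after seeing the data. With 3 mice per group, unknown depth and shared reads among copies, small changes of single members could not be settled.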
